A study of Homo sapiens with 6 samples.

Results

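CD38 was followed on 6 expression arrays of the human myeloma line MM.1S. CD38 encodes the surface ectoenzyme that the myeloma antibodies daratumumab and isatuximab bind. The gene was taken by its symbol in the platform annotation, and 1 probe set carried that symbol, so CD38 is 1 of 14884 genes tested here. All 6 samples, controls included, had received a 1 h pulse of Cfz, which usually stands for the proteasome inhibitor carfilzomib. After that pulse 3 samples were kept for 12 h with the solvent DMSO, and 3 for 12 h with 10 µM ATRA (all-trans retinoic acid, which activates the nuclear receptors RAR). The comparison asks how ATRA changed CD38 in Cfz-exposed cells of a single line. Unexposed cells were not analysed here. No label tells whether separate cultures stand behind the 3 samples of each group. The p-values therefore measure the spread between these samples, which may be technical. RNA was measured, and CD38 protein was not.

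CD38 is a type II membrane glycoprotein carried at high levels by plasma cells and by most myelomas. Its extracellular domain consumes NAD, releasing nicotinamide with ADP-ribose or cyclic ADP-ribose, and at acid pH it also makes NAADP from NADP. Cyclic ADP-ribose and NAADP release calcium from internal stores, and the ectoenzymes ENPP1 and CD73 turn ADP-ribose further into adenosine, which dampens T cells. Retinoic acid is a long-known inducer of CD38 in myeloid leukaemia cells, and a retinoic acid response element has been described in the first intron of the human gene.

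The stretch in front of the annotated start of CD38 is shown because it is the proximal promoter of the one gene described. It covers 250 bases, chr4:15778078-15778327 on the plus strand of GRCh38.p14 (RefSeq). Capitals mark the single match among the motifs searched, an E-box.
CD38 promoter: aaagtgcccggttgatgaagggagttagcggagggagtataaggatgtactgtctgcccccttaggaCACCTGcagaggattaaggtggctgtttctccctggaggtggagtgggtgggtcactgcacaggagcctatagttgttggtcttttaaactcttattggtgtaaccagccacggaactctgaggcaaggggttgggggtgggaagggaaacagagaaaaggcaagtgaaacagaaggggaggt
The E-box motif bound by E2A proteins, CAGGTG, was found 1 time, on the minus strand, with its first printed base 183 bases before the start. It occurs in 17.5% of 27305 promoter windows of the same length, searched on both strands. The retinoid receptor half-site AGGTCA (12.1% of windows) and its variant AGTTCA (8.91%) were found 0 times, as were the interferon regulatory factor element, GAAA repeated after any 2 bases (3.07%), and the TATA box TATAAA (11.1%). Other spellings of the half-site were not searched, and the window does hold the letters GGGTCA. The direct repeat of AGGTCA spaced by 5 bases was found 0 times here and in 0.00366% of all windows, and the repeat spaced by 2 bases in 0 windows. The motifs overlap in that each repeat contains the half-site, and these matches describe letters in this window only, which does not reach the first intron.

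CD38 was higher with ATRA on every array. Its intensity (linear units as the authors deposited them) was 291, 340 and 310 with DMSO in replicates 1, 2 and 3, and 1180, 1194 and 1246 with ATRA. The groups were far apart, since the lowest ATRA value was 3.47 times the highest DMSO value. The means were 314 ± 24.8 and 1207 ± 34.9 (SD, n = 3 each), so the spread within a group was 7.90% and 2.89% of its mean. On the log2 scale the difference was 1.95 (SE 0.096, 95% interval 1.72 to 2.17), a 3.85-fold rise (3.30 to 4.50), with a limma adjusted p of 0.000145. An exact two-sided permutation test over the 6 arrays gave p = 0.10, the smallest value that 3 against 3 allows. The call held under every alternative run, with the log2 difference between 1.89 and 2.01 whichever single array was left out (adjusted p up to 0.00222).

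The arrays were alike in overall level, with a median intensity over all probe sets of 9.40 to 9.76 and correlations of log2 values between 0.9902 and 0.992 within a group and 0.985 and 0.987 between groups (taken over genes, which are not replicates). The cells carried plasma cell transcripts. IRF4, the transcription factor of plasma cell fate, was at 1901 ± 13.4 with DMSO and 1687 ± 117 with ATRA, and MAF, the oncogene activated by the translocation of this line, at 1516 ± 80.0 and 1980 ± 76.4 (SD, n = 3). The 11 measured genes of the plasma cell list had a median intensity of 1063, but not all were bright. CD27 was at 13.9 ± 3.70 with DMSO and 16.2 ± 2.11 with ATRA, and CCR10 at 27.0 ± 4.55 and 56.8 ± 4.81. Markers of B, T, natural killer, myeloid, erythroid, stromal and epithelial cells were dim. The 28 measured of 50 had a median intensity of 12.3. Of these, 27 had a mean of 38.5 or less, and the brightest was the keratin gene KRT18 at 145 (named after its value was seen). Their summed intensity ran from 497 to 615 with DMSO and from 534 to 570 with ATRA, and their log2 differences from -0.44 to 0.43. In bulk RNA, fewer cells with a transcript and less of it per cell cannot be told apart.

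Among the 14884 genes, 20 had a larger increase than CD38, which placed it at 21 by increase and at 11 by p. Of all genes 3.8% were called in either direction (adjusted p under 0.05), 1.73% higher and 2.07% lower with ATRA, and 24.7% had groups that did not overlap (9.86% with all ATRA arrays above, 14.8% with all below). The median change over all genes was -0.01. By intensity, which depends on the probe set as well as the transcript, 9.0% of genes had a higher mean intensity than CD38 with DMSO and 1.24% with ATRA. Of the 1340 genes at least as bright as CD38 with DMSO, CD38 itself included, only SCD, the stearoyl-CoA desaturase (named after its value was seen), had a larger increase. The plot of change against DMSO level shows this position.

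**Figure D1:**
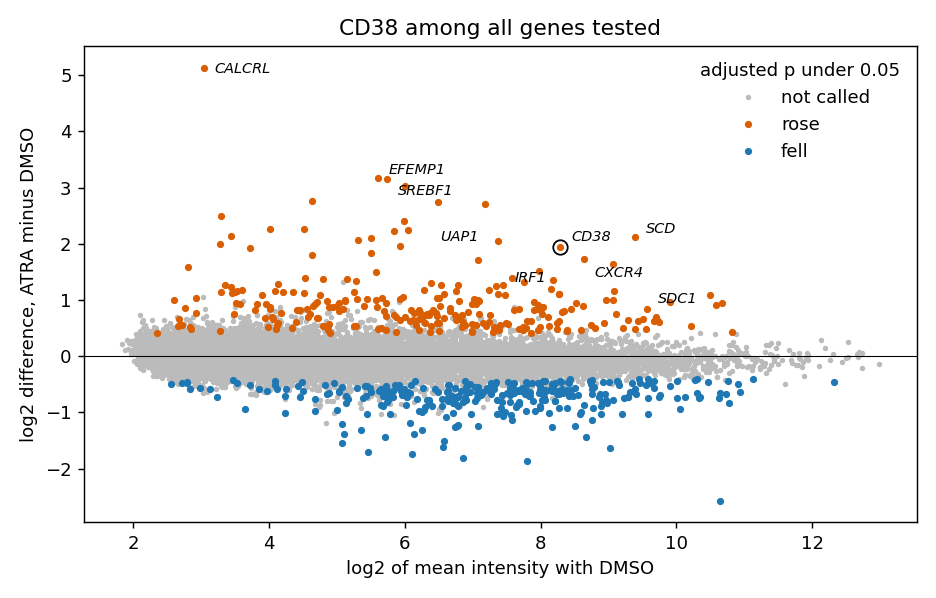
Each point is 1 of 14884 genes, with the log2 of its mean DMSO intensity across and the log2 difference ATRA minus DMSO upward; orange genes rose and blue genes fell at an adjusted p under 0.05. The circled point is CD38, at a difference of 1.95, and of the genes to its right only SCD lies higher.

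Whether CD38 rose more than another gene was tested on the log2 ratio of CD38 to that gene within each array, with limma over all 14883 other genes. CD38 enters every ratio, so these tests are not independent. The median change over all genes was -0.01, so against most genes the ratio mainly repeats the rise of CD38 itself. As nearly all ratios were called, their adjusted p-values are not comparable with those of single genes. CD38 rose more than 14855 genes (99.8%) and less than 8 (0.0538%), and the ratio was not called for 20. Of those 20, 12 had a larger and 8 a smaller increase than CD38, and for these genes the data do not settle the order.

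The genes next to CD38 by size of increase included several enzymes and regulators at lower intensities. UAP1, which makes the sugar donor UDP-N-acetylglucosamine, went from 166 ± 4.93 to 686 ± 9.59 (SD, n = 3), a log2 difference of 2.04. AMPD1, an AMP deaminase, went from 61.0 ± 6.01 to 236 ± 16.4, a difference of 1.96. The 95% interval of the change in the log2 ratio of CD38 ran from -0.39 to 0.19 against UAP1 and from -0.35 to 0.33 against AMPD1. IRAK2, a kinase of interleukin-1 and Toll-like receptor signalling, rose by 2.10, PRR15 by 2.07 and TRIM31, a ubiquitin ligase, by 1.99, the last from 9.76, as dim as the markers of other cell types, which leaves the size uncertain. Just below CD38 stood VPREB1 (1.92), PLAAT4 (1.84), GFRA1 (1.80), CXCR4 (1.73) and ATP13A2 (1.72). GFRA1 is a co-receptor of glial cell line-derived neurotrophic factor and ATP13A2 a lysosomal polyamine transporter. With DMSO GFRA1 was at 24.9 ± 5.08, in the range of the markers of other cell types. Each of these 10 genes passed limma's test, the highest adjusted p being 0.00962 for GFRA1.

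Of 336 listed surface genes, 198 were measured, and CD38 had a larger increase than each of them. Surface genes outside these lists could rank higher, as ULBP3 (2.27) and CALCRL (5.13) did. In this list 8 rose, 13 fell and 177 were not called, so that 10.6% were called against 3.8% of all genes, and the median change was -0.03 against -0.01. By the test of the ratio CD38 rose more than 196 of the 198, as it did than 99.8% of all other genes. The ratio was not called for CXCR4 and VPREB1. VPREB1, part of the surrogate light chain of B cell precursors, was at 13.3 ± 2.48 with DMSO and 49.6 ± 1.49 with ATRA (SD, n = 3). With DMSO it was as dim as those cell type markers, which leaves the size of the rise uncertain.

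**Figure D2:**
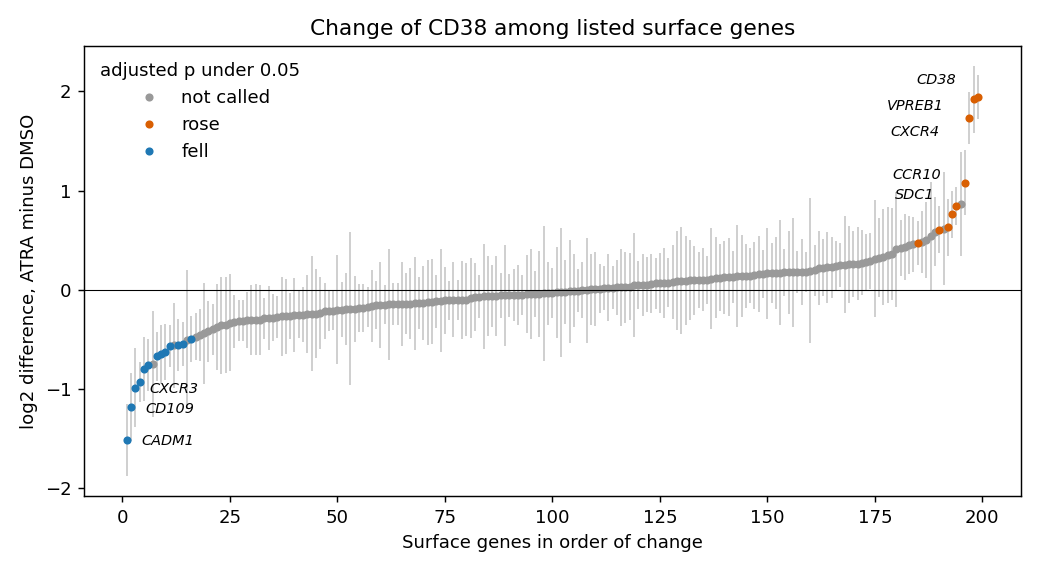
Points show the log2 difference ATRA minus DMSO of CD38 and 198 listed surface genes in order of change, with grey lines for the 95% interval of limma; orange genes rose and blue genes fell at an adjusted p under 0.05. CD38 stands at the upper end at 1.95, next to VPREB1 at 1.92 and CXCR4 at 1.73, and CADM1 at the lower end at -1.52.

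The place of CD38 in the order of surface intensities moved as well. Counted with the 198 others, it was in places 22 to 26 of 199 on the DMSO arrays and 5 to 7 on the ATRA arrays. With DMSO 21 surface genes were brighter than CD38 on all 3 arrays, and with ATRA 3 were, BSG, CD28 and SDC1 (BSG and CD28 named after their values were seen). The list follows CD numbers and known targets, and surface location was not measured. Some of the 21, such as CD68 and LAMP1, encode mainly lysosomal proteins. Probe sets differ in how strongly they respond to a transcript, so this order is one of intensities on these arrays and not of transcript abundance. What can be compared is how the place of CD38 itself moved.

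Beside CD38, 21 of 36 listed surface targets of myeloma therapy or research were measured, of which 4 rose, 3 fell and 14 were not called (33.3% called against 3.8% of all genes, median change -0.12). These targets had a median intensity of 215 against 18.5 for all genes, so the shares are not matched for level. The same goes for lists below, such as the regulators of CD38 transcription (225) and the plasma cell genes (1063). When the fit was redone on the 7442 genes left without the dimmer 50%, 1143 were called. Their p-values were adjusted among those genes only, while the list counts come from the fit over all 14884 genes. CXCR4, the homing receptor for the chemokine CXCL12, came closest to CD38. It was at 397, 354 and 443 with DMSO and at 1370, 1345 and 1233 with ATRA, with no overlap. Its intensity rose 3.32-fold (log2 difference 1.73, SE 0.11, adjusted p = 0.000539). The ratio of CD38 to CXCR4 was 0.733, 0.963 and 0.700 with DMSO and 0.861, 0.888 and 1.01 with ATRA, so the ratios of the groups overlapped. The log2 ratio was 0.22 higher with ATRA (95% interval -0.13 to 0.56), which did not pass limma's test (adjusted p = 0.194). It passed without DMSO replicate 2 (0.36, adjusted p = 0.0270) and with array weights (0.32, adjusted p = 0.0314).

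SDC1, the plasma cell proteoglycan CD138, rose less. It was at 735, 773 and 776 with DMSO and at 1356, 1369 and 1373 with ATRA, a log2 difference of 0.84 (SE 0.083, adjusted p = 0.00274). The ratio of CD38 to SDC1 was 0.396, 0.441 and 0.400 with DMSO and 0.871, 0.872 and 0.908 with ATRA. All 3 ATRA ratios were above all 3 DMSO ratios, and the ratio rose 2.15-fold (95% interval 1.78 to 2.59, limma adjusted p = 4.34e-06).

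SLAMF7, the target of the antibody elotuzumab, was at 1236, 1286 and 1295 with DMSO and at 1025, 1072 and 977 with ATRA. The ATRA values were all lower, yet the log2 difference of -0.31 (SE 0.087) did not pass limma's test (adjusted p = 0.112). The ratio of CD38 to SLAMF7 went from 0.236 to 0.265 with DMSO to 1.11 to 1.28 with ATRA, a 4.78-fold rise (limma adjusted p = 1.28e-07). CD47, the inhibitor of phagocytosis by macrophages, was at 500 ± 1.64 and 433 ± 18.0 (SD, n = 3), a difference of -0.21 (adjusted p = 0.252, not called), and the ratio of CD38 to it rose 4.46-fold. FCRL5, another antibody target, was at 6.33 ± 2.40 and 5.15 ± 0.666, in the range of the markers of other cell types.

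Of the myeloma surface targets, 3 fell while CD38 rose. IL6R, the receptor chain for the myeloma growth factor interleukin-6, went from 1928 ± 35.2 to 1367 ± 119, a log2 difference of -0.50 (adjusted p = 0.0401). CD48, a ligand of the natural killer receptor CD244, went from 308 ± 20.8 to 194 ± 16.4 (-0.67, adjusted p = 0.0178). CD70, the ligand of CD27, went from 297 ± 8.64 to 173 ± 31.9 (-0.80, adjusted p = 0.0249; SD, n = 3 for each). On the side of increases, CCR10, a chemokine receptor of plasma cells, rose by 1.08 from 27.0 ± 4.55, and ICAM1, an adhesion molecule, by 0.63 from 233 ± 27.2. With DMSO CCR10 was in the range of the markers of other cell types. CD44, the hyaluronan receptor, stood just outside the threshold with -0.48 (adjusted p = 0.0506). The calls of IL6R (adjusted p up to 0.129), CD48 (up to 0.0739) and ICAM1 (up to 0.123) were lost whichever array was left out, and that of CD70 in all but the fit without ATRA replicate 2 (up to 0.0962). ICAM1 also lost it with arrays shifted to a common median (adjusted p = 0.0514) and IL6R with cyclic loess (0.0529).

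**Figure D3:**
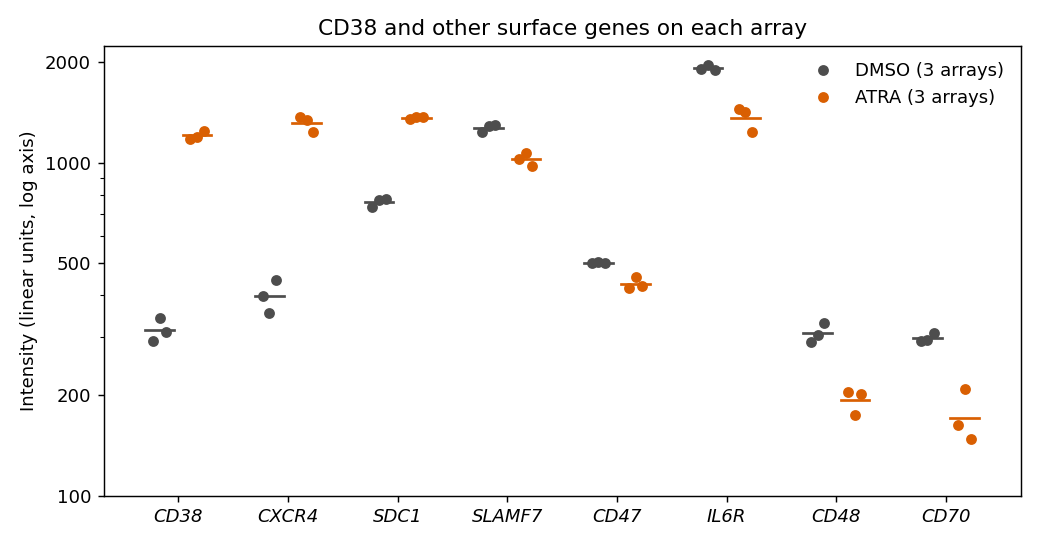
Points are the intensities of 8 surface genes on each array (linear units on a log axis), grey for DMSO and orange for ATRA, and bars are geometric means of 3 arrays. CD38 and CXCR4 rise from values of 291 to 443 to values of 1180 to 1370, while the SLAMF7, CD47, IL6R, CD48 and CD70 points lie lower with ATRA.

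Of the other CD-numbered surface antigens 177 were measured, of which 4 rose, 10 fell and 163 were not called (7.91% called against 3.8% of all genes, median -0.03). The decreases were led by CADM1, an adhesion molecule (-1.52), and CD109, a glycosylphosphatidylinositol-linked protein (-1.18), followed by the chemokine receptor CXCR3 (-0.99) and the semaphorin receptor PLXNC1 (-0.93). With ATRA the means of CADM1 (33.8), CD109 (29.9) and CXCR3 (38.2) were in the range of the markers of other cell types. That leaves the sizes of their falls uncertain. NOTCH2 rose by 0.76 and CXCR5, a B cell chemokine receptor, by 0.61. CXCR5 was in the range of the markers of other cell types in both groups. It was at 21.0 ± 0.291 with DMSO and 32.1 ± 3.21 with ATRA (SD, n = 3). A second probe set of CD109 differed by -0.17 and that of CADM1 by -0.75. With an array left out, CXCR3 kept its call only without DMSO replicate 1 (adjusted p up to 0.0925), CXCR5 only without ATRA replicate 3 (up to 0.0874), and NOTCH2 lost it without DMSO replicate 1 (0.0509).

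Of the measured NAD genes around CD38, 2 were called, on opposite sides. With so few called, and a median intensity of 36.6 against 18.5 for all genes, their share cannot be set apart from that of all genes. Of 44 listed genes of NAD synthesis, transport and use, 27 were measured, and 1 rose, 1 fell and 25 were not called (7.41% called against 3.8% of all genes, median -0.10). NAMPT, the rate-limiting enzyme of NAD salvage from nicotinamide, was at 876, 813 and 906 with DMSO and at 499, 501 and 620 with ATRA. The groups did not overlap, and the log2 difference was -0.69 (SE 0.12, adjusted p = 0.0231). QPRT, which makes the NAD precursor nicotinic acid mononucleotide from quinolinate, was at 82.4, 67.6 and 74.2 with DMSO and at 127, 130 and 125 with ATRA, a difference of 0.77 (SE 0.10, adjusted p = 0.00968). PARP2, a nuclear NAD-consuming enzyme, differed by -0.71 and was not called (adjusted p = 0.0757). NAMPT has 2 further dim probe sets that differed by -0.17 and -0.64. The call of QPRT was lost when a change of at least 1.2-fold was tested (limma treat, adjusted p = 0.0596). That of NAMPT was kept only without ATRA replicate 3 when 1 array was left out (adjusted p up to 0.0921) and was lost with its probe sets averaged (-0.50, adjusted p = 0.169).

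In the list of ectoenzymes and adenosine genes, 17 of 28 were measured, of which 1 rose, 1 fell and 15 were not called (11.8% called against 3.8%, median -0.01). ENPP1, the ectoenzyme that cleaves ADP-ribose to AMP downstream of CD38, was at 53.6, 39.2 and 50.1 with DMSO and at 92.5, 93.7 and 95.2 with ATRA. All ATRA values were higher, and the log2 difference was 0.99 (SE 0.13, adjusted p = 0.00940). ADA, the adenosine deaminase that clears adenosine, went from 569 ± 19.2 to 398 ± 28.6 (SD, n = 3), a difference of -0.52 (adjusted p = 0.0307). PNP, purine nucleoside phosphorylase, had a difference of -0.39 (adjusted p = 0.152), and the adenosine receptor gene ADORA1 one of 0.39 (adjusted p = 0.656). ADORA1 was at 20.3 with DMSO and 25.2 with ATRA, in the range of the markers of other cell types. A second, dim probe set of PNP differed by 0.13. The call of ADA was lost whichever array was left out (adjusted p up to 0.110), and CD73 was not analysed here.

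Of 35 listed genes of calcium release by cyclic ADP-ribose and NAADP, 16 were measured, and 1 rose, 1 fell and 14 were not called (12.5% called against 3.8%, median -0.04). TPCN1, an endolysosomal channel opened in response to NAADP, was at 54.5, 50.04 and 54.5 with DMSO and at 105, 99.7 and 101 with ATRA. The groups were clearly apart, with a log2 difference of 0.95 (SE 0.088, adjusted p = 0.00238). Its relative TPCN2 was at 78.4 ± 7.62 and 108 ± 3.17 (SD, n = 3), a difference of 0.47 (adjusted p = 0.0582, not called). JPT2, an NAADP-binding protein, went from 235 ± 7.2 to 169 ± 9.98, a difference of -0.48 (adjusted p = 0.0348), and the calcium-dependent kinase gene CAMK4 had one of -0.74 (adjusted p = 0.0804). The call of JPT2 was lost whichever array was left out (adjusted p up to 0.123).

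**Figure D4:**
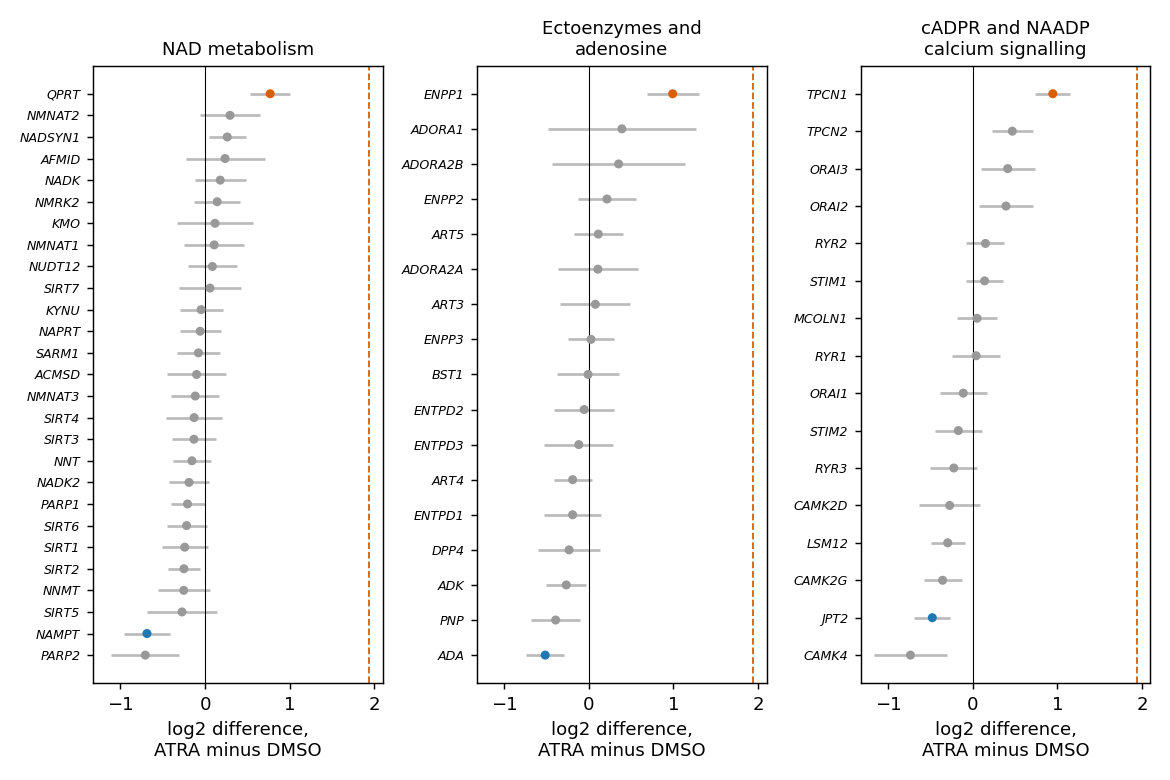
Points are the log2 differences ATRA minus DMSO of the measured genes of NAD metabolism (27), ectoenzymes and adenosine (17) and calcium signalling (16), with the 95% interval of limma; orange genes rose, blue genes fell and grey genes were not called. The dashed line marks CD38 at 1.95, to the right of every point, and the called genes are QPRT, NAMPT, ENPP1, ADA, TPCN1 and JPT2.

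The neighbours of CD38 on chromosome 4 did not share its change. BST1, which encodes the CD38-related ectoenzyme CD157 and lies next to it, was at 8.69 ± 1.25 with DMSO and 8.64 ± 1.40 with ATRA (SD, n = 3), in the range of the markers of other cell types. Its log2 difference was -0.01 (95% interval -0.38 to 0.36, adjusted p = 0.982). The 5 measured genes on each side, from CPEB2 to TAPT1-AS1, had differences between -0.48 (CPEB2) and 0.24 (PROM1). Of the 10, 0 passed limma's test, 1 (CPEB2) had an unadjusted p under 0.05 and 0 passed with eBayes trend and robust moderation. CD38 rose more than each of them by the test of the ratio, as it did than 99.8% of all other genes. CPEB2, FBXL5 and TAPT1 were at 50.7, 252 and 116 with DMSO. The other 7, among them BST1, C1QTNF7, CC2D2A, FGFBP1, FGFBP2 and PROM1, stood below 9 in both groups, in the range of the markers of other cell types.

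**Figure D5:**
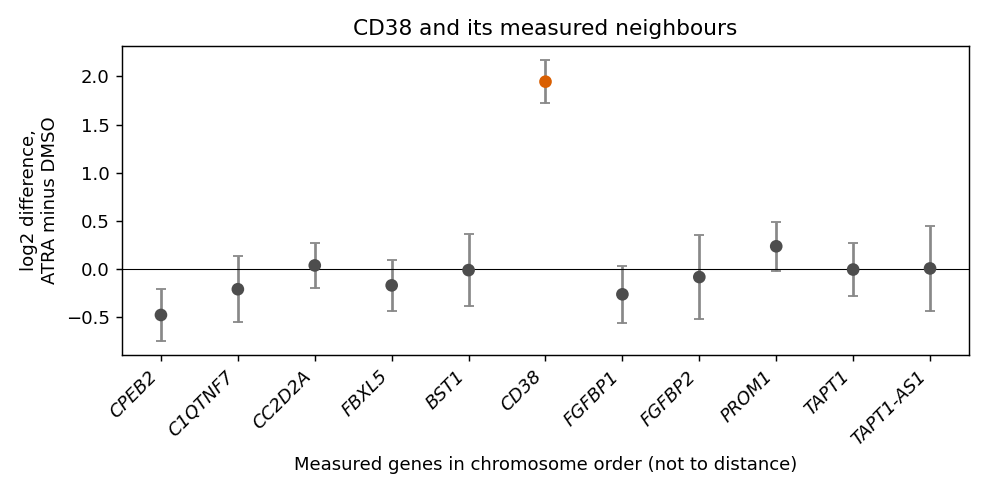
Points are log2 differences ATRA minus DMSO of CD38 and the 5 measured genes on each side in chromosome order, with 95% intervals of limma; the horizontal axis shows order, not distance. CD38 lies at 1.95 and the 10 others between -0.48 and 0.24.

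Of 35 genes listed as regulators of CD38 transcription, 29 were measured, of which 2 rose, 2 fell and 25 were not called (13.8% called against 3.8%, median -0.06). Their median intensity was 225 against 18.5 for all genes, so these shares are not matched for level and do not set the regulators apart. The genes of the receptors RARA and RXRA were not analysed here. IRF1, an interferon-induced transcription factor, was at 172, 173 and 181 with DMSO and at 434, 415 and 412 with ATRA. That is a log2 difference of 1.26 (SE 0.085, adjusted p = 0.000614), and CD38 rose more (log2 ratio of CD38 to IRF1 higher by 0.68 with ATRA, adjusted p = 0.000327). EZH2, the methyltransferase that places the repressive mark on histone H3 lysine 27, went from 376 ± 37.1 to 234 ± 37.2 (SD, n = 3), a difference of -0.69 (adjusted p = 0.0424). NFKB1, an NF-kappaB subunit, had a difference of -0.44 (adjusted p = 0.0404), and SOCS1, an inhibitor of cytokine signalling, one of 0.83 from 16.2 ± 1.22 (adjusted p = 0.0143). SOCS1 was in the range of the markers of other cell types in both groups (29.0 ± 3.64 with ATRA). IRF4 (-0.17, adjusted p = 0.383) and MAF (0.39, adjusted p = 0.0698) did not pass. With 1 array left out, NFKB1 lost its call in each fit (adjusted p up to 0.134), EZH2 in all but that without ATRA replicate 2 (up to 0.130), and SOCS1 in all but those without DMSO replicate 2 or ATRA replicate 3 (up to 0.0637). Cyclic loess ended the calls of EZH2 (adjusted p = 0.0502) and NFKB1 (0.0565), and quantile normalization that of NFKB1 (0.0524).

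Of 33 genes of the retinoid apparatus 13 were measured, and 1 rose, 1 fell and 11 were not called (15.4% called against 3.8% of all genes, median -0.01). RDH10, the retinol dehydrogenase of retinoic acid synthesis, went from 254 ± 23.8 to 134 ± 14.7 (SD, n = 3), a log2 difference of -0.92 (adjusted p = 0.00903). NRIP1, a nuclear receptor corepressor, rose by 0.81 (adjusted p = 0.0190), and the coactivators NCOA1 (-0.24) and NCOA2 (0.24) did not pass. Of 31 listed genes that other cell types switch on with retinoic acid, 13 were measured, of which 5 rose, 0 fell and 8 were not called (38.5% called against 3.8% of all genes, median -0.03). PLAAT4, a phospholipase family gene, rose by 1.84 to 162 ± 14.9 from 45.6 ± 6.62, IRF1 by 1.26, NRIP1 by 0.81, UBE2L6 by 0.67 and ICAM1 by 0.63. The log2 ratio of CD38 to PLAAT4 was higher by 0.11 with ATRA and was not called (95% interval -0.28 to 0.49, adjusted p = 0.552). With 1 array left out, NRIP1 kept its call only without DMSO replicate 2 or ATRA replicate 1 (adjusted p up to 0.0776) and UBE2L6 only without ATRA replicate 2 (up to 0.0614). Averaging its probe sets ended the NRIP1 call too (0.38, adjusted p = 0.171).

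Molecules that meet antibodies and effector cells at the surface were partly measured. Of 36 ligands listed for natural killer cells, T cells and macrophages 22 were measured, and 2 rose, 2 fell and 18 were not called (18.2% called against 3.8%, median 0.04). ULBP3, a ligand of the activating receptor NKG2D, rose by 2.27 from 16.2 ± 5.80 to 74.8 ± 7.86 (SD, n = 3, adjusted p = 0.00514), starting from the range of the markers of other cell types. CD58, the ligand of CD2, fell by 0.76 on the log2 scale from 36.1 ± 3.73 to 21.3 ± 1.53. In both groups CD58 was in the range of the markers of other cell types. CD48 fell as given above, and ICAM1 rose. The call of CD58 ended when DMSO replicate 1 or 3 or ATRA replicate 1 was left out (adjusted p up to 0.0582). CD274, the checkpoint ligand PD-L1, had a difference of 0.42 (adjusted p = 0.119). At 19.6 ± 2.70 with DMSO and 26.0 ± 1.38 with ATRA, CD274 was in that range too. Among complement regulators 4 of 14 were measured and 0 passed limma's test, with CLU, clusterin, at 558 ± 6.09 and 487 ± 18.8 (-0.20, adjusted p = 0.283). The complement inhibitors CD46, CD55 and CD59 were not analysed here. Of 6 listed partners of CD38 in the membrane 5 were measured and 0 passed. Among them PECAM1, the ligand CD31, was at 8.22 ± 1.05 and 9.27 ± 2.98, and CD9 at 75.5 ± 37.0 and 49.8 ± 6.14. At an unadjusted p under 0.05 the complement list and the partner list each had 0 genes, and with eBayes trend and robust moderation 1 complement gene and 0 partners passed.

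Other plasma cell genes went both ways. Of 17 listed 11 were measured, and 3 rose, 1 fell and 7 were not called (36.4% called against 3.8%, median 0.25). XBP1, the transcription factor of the secretory programme, went from 1189 ± 39.6 to 1731 ± 42.3 (SD, n = 3), a log2 difference of 0.54 (adjusted p = 0.0175). SDC1 and CCR10 rose as given above. CCND2, the cyclin D2 gene, went from 1288 ± 68.1 to 772 ± 16.4, a difference of -0.74 (adjusted p = 0.00653). The call of XBP1 was lost whichever array was left out (adjusted p up to 0.0758).

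The genes most like CD38 across the 6 arrays were sought among the 7442 with a mean log2 intensity at or above the median of all genes. Pearson's r of log2 values was above 0.99 for 52 of them, and the 6 arrays share the group difference, so r here mainly ranks how small the scatter is beside that difference. The 10 highest were MFGE8 (0.999), SDC1 (0.999), GALM (0.999), HSPA1A (0.999), CALCRL (0.998), ERN1 (0.998), DUSP5 (0.998), TMT1A (0.998), NUP210 (0.998) and HSPA1B (0.998). Their changes were of very different size. CALCRL, a receptor subunit for calcitonin gene-related peptide, had a log2 difference of 5.13 from 8.25, as dim as the markers of other cell types, and MFGE8, a secreted phosphatidylserine-binding protein, one of 2.74. GALM, which interconverts galactose anomers, rose by 1.36, ERN1, the stress sensor IRE1, by 1.00, NUP210, a nuclear pore protein, by 0.95, TMT1A by 0.94 and DUSP5, a phosphatase of ERK, by 0.91. HSPA1A (0.28) and HSPA1B (0.26), near-identical heat shock protein genes whose probe sets could share signal, did not pass limma's test (adjusted p = 0.126 and 0.151).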

How the data were processed

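RNA of 6 MM.1S samples was hybridised to whole-transcript arrays, 1 sample an array. The authors deposited 1 linear intensity per probe set and array (2.53 to 14038), and RMA and limma appear in the submitters' processing notes without versions or roles. The background correction, summary method and genome build behind the values are not given in the sources used here. Log2 was taken of the deposited intensities with no further normalization. Precision is limited by the 3 arrays per group.

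Of 53617 probe sets, 16098 (30.0%) had 1 gene symbol in the platform annotation, 0 had several and 37519 had none. For the 779 genes with several probe sets the one with the highest mean was kept, leaving 14884 genes and no filter on dim ones. ATRA and DMSO were compared with lmFit and eBayes of limma 3.58.1 (R 4.3.3) without a block. The tests were two-sided, p-values were adjusted by Benjamini-Hochberg across the 14884 genes, and called means an adjusted p under 0.05. The same fit was run on the log2 ratio of CD38 to each other gene within each array. The exact permutation test used scipy 1.17.1. Before use the fits were run on simulated data, and the only condition to go on was that a rise set for CD38 be recovered and called.

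CD38 and the gene lists were chosen with earlier results of these data known. The genes named are a fixed set, the called members of each list (the 10 with the largest change for the other CD-numbered antigens), the 2 members of each list with the largest difference that were not called, the 5 measured genes on each side of CD38, the 5 genes above and below it by change, and the 10 most correlated with it. Some of these are given only by their counts. Alternatives were each array left out, a replicate block, filters on dim genes, other normalizations, other moderation, array weights, other treatment of probe sets and a minimum fold. Promoter sequences are RefSeq's for GRCh38.p14, used for the sequence window only, and the order of neighbouring genes is RefSeq's.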

Additional observations from a re-analysis of the deposited data

How the results depend on the processing

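The rise of CD38 kept its direction and its call under all 17 alternatives, with log2 differences of 1.89 to 2.01. Its place by increase ran from 19 to 24 with 1 array left out (24 without DMSO replicate 1). The count of genes called, 565 as reported, ran from 207 (without DMSO replicate 1) to 317 (without ATRA replicate 2) with 1 array left out. It was 169 with limma treat at 1.2-fold, 359 with every probe set tested by itself, 1143 without the dimmer 50% of genes and 1327 with eBayes trend and robust moderation. The list members called, 38 as reported, numbered 16 to 21 with 1 array left out, 14 with treat and 72 with trend and robust moderation; the cause was not tested. Genes that rose less than CD38 numbered 7414 without the dimmer 50%, where fewer genes are tested. Some named genes that were not called as reported gained a call. Of 10 alternatives other than a left-out array, CD44 was called in 5, TPCN2 in 4, MAF in 3, SLAMF7 in 2, and CD47 and IRF4 in 1 each.

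With the replicate number as a block, 200 genes and 15 list members were called, and CD38 kept its call (adjusted p = 0.00621). Of 48 other named genes called, 20 were not called with the block, among them QPRT (adjusted p = 0.0525), CCR10 (0.0542) and GFRA1 (0.0629), which had kept their calls whichever array was left out. With treat 20 of the 48 were not called, QPRT among them. Same-numbered samples had correlations of deviations of 0.017, 0.00867 and 0.0161. Each sample correlated best with its own number, a hint from the data and not from the design. Deviations from a group mean cancel out within the group, so these correlations are not independent. They do not settle whether same-numbered samples share more than a number.

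Signs turned only for differences near 0 or for dim genes, and the cause was not tested. The log2 ratio of CD38 to VPREB1 was -0.13 with array weights and -0.050 to 0.15 with 1 array left out. TAPT1 was at 0.017 with quantile normalization, 0.038 with cyclic loess and 0.0012 with array weights, and TAPT1-AS1 at -0.019 with a common median, -0.0067 with quantile normalization and -0.012 with cyclic loess. With 1 array left out TAPT1 ran from -0.068 to 0.11, TAPT1-AS1 from -0.12 to 0.20, BST1 from -0.13 to 0.10, CC2D2A from -0.020 to 0.11, FCRL5 from -0.45 to 0.049, FGFBP2 from -0.19 to 0.14, PECAM1 from -0.11 to 0.29 and VTN from -0.22 to 0.027.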
